A study of Mus musculus with 6 samples.

Results

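The genes described here encode lysosomal hydrolases, lysosomal membrane proteins and proteins that act with them: 11 glycan-degrading enzymes, 6 lipid enzymes or activator proteins, 11 peptidases, 5 membrane proteins, the transcription factors Tfeb and Tfe3, the autophagy receptor Sqstm1 and progranulin (Grn). They were taken by symbol and not by a cutoff on a measured value, but earlier results of these data were known. All 37 had a row among the 25239 genes of the deposited count table. The samples were primary mouse pulmonary fibroblasts, with 3 quiescent libraries and 3 libraries of cells made senescent with Nutlin 3a, which blocks the binding of Mdm2 to p53. The labels describe culture in 10% serum at 5% oxygen, 16 hours of the Cdk1 inhibitor RO3306, 48 hours of Nutlin 3a, followed by BI-2536, an inhibitor of Plk1, given at 100 nM to remove dividing cells, 12 days in total. That text stands on both groups, and the sources used here do not say how quiescence was reached. Genotype, strain, age and number of animals are not stated, nor is it said that replicates came from different cultures or mice. The p-values therefore reflect only how far these 6 libraries differ, and that spread may be technical.

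Lysosomes are acidic organelles in which hydrolases take apart glycans, lipids and proteins delivered by endocytosis and autophagy. Most soluble hydrolases receive a mannose phosphate tag in the Golgi and are carried to the lysosome by receptors, while a proton pump, the V-ATPase, acidifies the lumen. TFEB and TFE3 are transcription factors held in the cytosol by mTORC1 when nutrients are plentiful; in the nucleus they bind a promoter element with the core CACGTG that many lysosomal genes carry. An expanded lysosomal compartment is a known feature of senescent fibroblasts, and the staining most used to recognise them reads the beta-galactosidase that Glb1 encodes.

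The promoters of 34 of the 37 genes were found in a RefSeq table for GRCm38.p6 that covers 250 bases before and 50 bases after each start. The letters CACGTG, which read the same on both strands, stood in a promoter of 10 of these 34 genes (29.4%), against 2187 of all 27025 genes in the table (8.09%). The longer form TCACGTGA, which contains that core, stood in those of Ctsa, Ctsd, Gla and Mcoln1, 4 of 34 (11.8%) against 1.12% of all genes. That form with G before it and C after it stood in 0 of the 34 and in 0.370% of all genes. A match describes letters in this window only, and binding was not measured. The following stretches were chosen because they span several arrangements of the core: Lamp1 with 4 copies, Glb1 and Gaa with 1 each, and 30 bases around 1 of the 2 copies upstream of Gla. They are printed 5′ to 3′ on the strand of the gene, with CACGTG in capitals. The Gla stretch overlaps annotated exons of another gene, whereas the Lamp1, Glb1 and Gaa stretches overlap none.
Lamp1, chr8:13159061-13159160, plus strand: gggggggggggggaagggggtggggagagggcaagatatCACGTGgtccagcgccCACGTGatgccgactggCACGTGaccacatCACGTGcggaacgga
Glb1, chr9:114400968-114401067, plus strand: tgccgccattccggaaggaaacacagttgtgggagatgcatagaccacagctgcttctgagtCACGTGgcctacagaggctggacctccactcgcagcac
Gaa, chr11:119267763-119267862, plus strand: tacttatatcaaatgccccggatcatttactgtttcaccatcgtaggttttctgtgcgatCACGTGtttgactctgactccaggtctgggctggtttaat
Gla, chrX:134601215-134601244, minus strand: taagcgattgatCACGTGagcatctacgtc

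The gene table held between 93736593 and 109706025 counts per library, of which 79.8% to 82.8% lay in Rn45s, Lars2 and Mir6236, treated here as ribosomal rows. The lysosomal genes summed to 222680 to 269875 counts per library. All 10 fibroblast markers on a fixed list passed the filter on low counts, with a summed level of 4834 to 4972 CPM (counts scaled by the normalised library total) in quiescent and 4037 to 4474 in senescent libraries. Within that sum 6 were lower, among them Col3a1 (log2 fold change -1.95), Tcf21 (-1.70), Pdgfra (-1.45) and Pdgfrb (-1.01), and 3 were higher, with Fn1 at 0.94. Over all tested genes 37.8% were called lower and 36.7% higher at an adjusted p under 0.05 in edgeR. Markers of other cells also differed: the summed level of 8 epithelial markers was 1.22 to 1.26 CPM in quiescent and 6.12 to 7.93 CPM in senescent libraries, mostly Krt19 (2.96), and that of 6 endothelial markers 4.92 to 5.50 and 3.16 to 4.69 CPM, with Tek at -2.67 and Cdh5 at 2.32. The filter left 2 of the 8 epithelial markers, Krt19 and Krt18 (1.54), and 3 of the 6 endothelial ones. Below the filter, Krt8 had 7, 11 and 8 counts in quiescent and 0, 4 and 4 in senescent libraries. Epcam had 0, 3 and 0 against 1, 2 and 0 counts. The part of these other cells in the results on lysosomal genes was not tested. Cdkn1a, the gene of the p53 target p21, was higher in senescent libraries (log2 fold change 1.14). Genes of dividing cells were higher in the quiescent libraries: Mki67 measured 51.6, 55.0 and 51.1 CPM there and 12.0, 9.71 and 9.59 CPM in senescent ones, and Top2a 51.1, 53.5 and 53.6 against 14.4, 13.5 and 12.3 CPM. Quiescent cells do not divide, so these levels go against that label, and the libraries labelled quiescent are the baseline of every comparison here. The part of dividing cells in the results was not tested. Senescent replicate 3 stood apart: its root mean square log2 distance to the nearest senescent library was 0.318, against 0.262 between the other senescent libraries and 0.221 to 0.232 among the quiescent ones.

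Lysosomal genes moved in both directions. In edgeR's quasi-likelihood test, adjusted over all 14065 tested genes, 13 of the 37 were higher in senescent libraries, 18 were lower and 6 did not pass at an adjusted p under 0.05. Over all tested genes 36.7% were called higher and 37.8% lower, 74.5% in all, so these counts lie near the background. The median log2 fold change was -0.04, beside -0.02 over all tested genes. Changes were mostly small: Ctss, Sqstm1 and Ctsh rose and Lgmn, Scarb2, Tfeb and Lipa fell by more than 2-fold, 3 and 4 of the 37, where 11.0% and 14.3% of all genes did so. Values in the 3 libraries of each group did not overlap for 32 of the 37 genes, 14 of them higher and 18 lower, where 38.4% and 39.9% of all genes, 78.3% together, were so separated. The 13 higher, the 3 above 2-fold and the 14 separated each include Ctss. That gene passed the filter on low counts only through the senescent libraries. When the libraries were scaled by their totals alone, without TMM, the median of all genes went from -0.02 to -0.32, and the lysosomal calls became 10 higher and 23 lower. Over all genes 2952 were then called higher, where 5158 were with TMM. The shares of all genes set beside counts in this report are those with TMM, not those under library totals. Upper quartile scaling moved the median of all genes to -0.12 and left 13 lysosomal genes higher and 18 lower. In bulk libraries fewer cells of a type and less RNA per cell cannot be told apart.

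**Figure D1:**
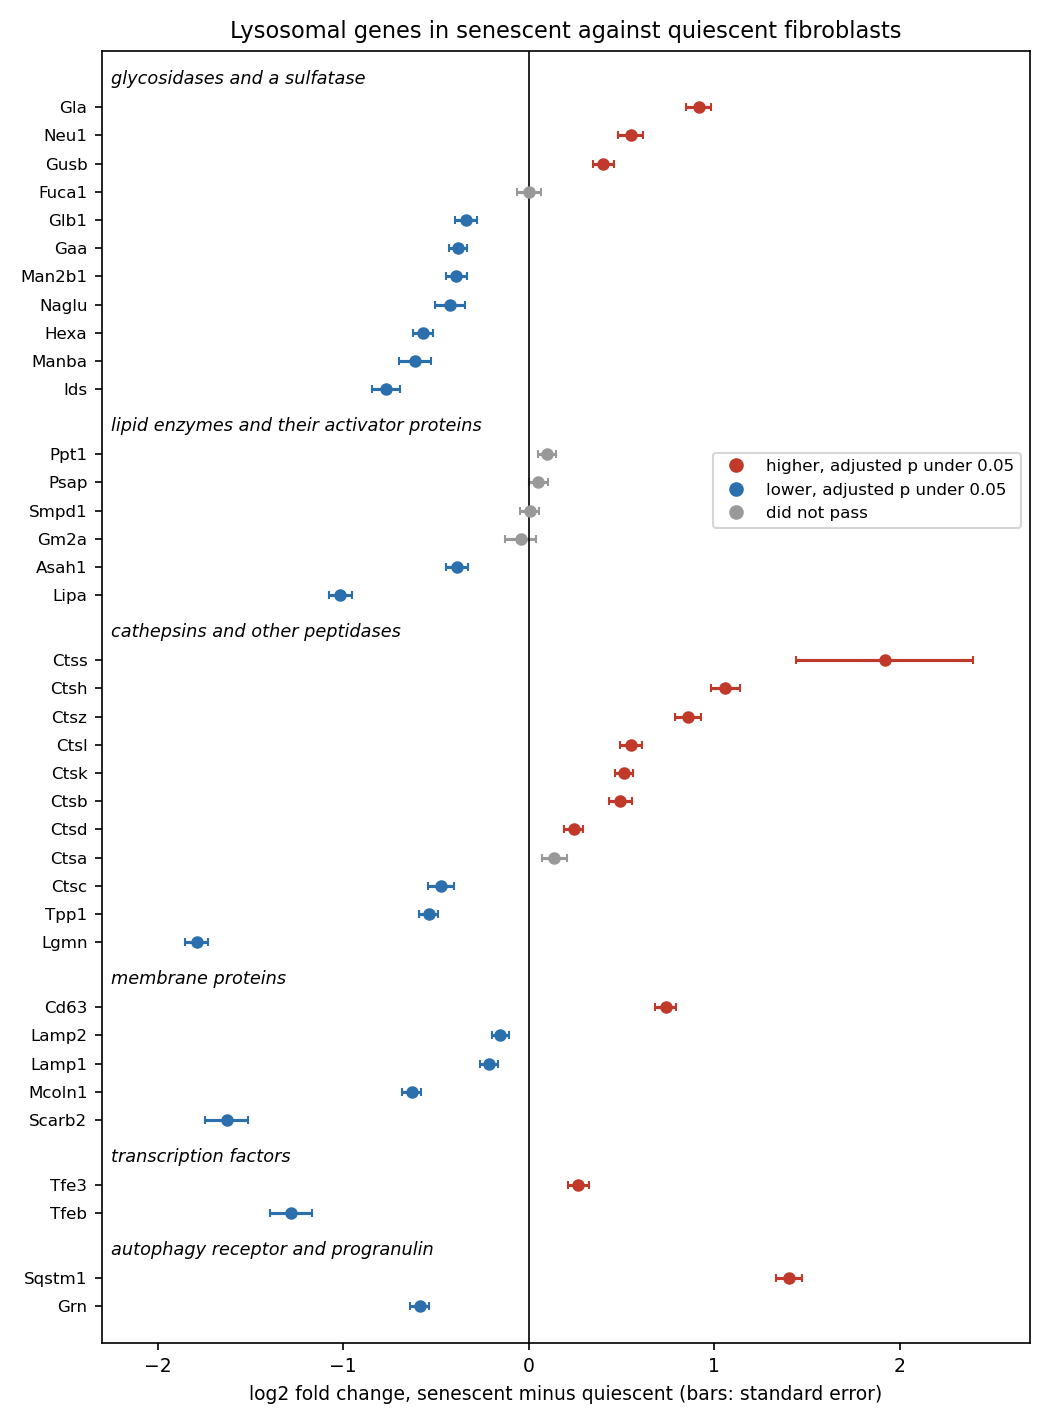
Log2 fold change (x axis, senescent minus quiescent) of the 37 lysosomal genes, grouped by role; points are estimates from edgeR, bars their standard errors, and colours the call. Cathepsins lie mostly to the right and glycosidases mostly to the left of 0, with Lgmn (-1.79) and Scarb2 (-1.63) the lowest and Ctss (1.92) and Sqstm1 (1.40) the highest.

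Genes with the core in a promoter were found on both sides of the comparison. Of the 10, Gla, Ctsd and Ctsl were higher in senescent libraries, Glb1, Gaa, Naglu, Lgmn, Lamp1 and Mcoln1 were lower, and Ctsa did not pass the test. Their median log2 fold change was -0.28, and that of the 24 matched genes without the core was -0.02, with 8 higher and 11 lower, against 36.7% higher and 37.8% lower over all tested genes. These 2 sets overlapped over almost their whole range, from -1.79 to 0.91 and from -1.63 to 1.92. The value of 1.92 is that of Ctss, which counts among the 8 higher and passed the filter only through the senescent libraries.

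Among enzymes that cut glycans, 7 of 11 were lower, 3 were higher and Fuca1, which encodes an alpha-fucosidase, did not pass. Over all tested genes 37.8% were lower and 36.7% higher. Glb1, which encodes the lysosomal beta-galactosidase (chromosome 9, 114401076 to 114474898, GRCm38), measured 11.0, 10.3 and 11.3 CPM in quiescent replicates 1 to 3 and 8.74, 8.76 and 8.32 CPM in senescent replicates 1 to 3. All senescent libraries lay below all quiescent ones, and the log2 fold change was -0.34 (standard error 0.06, adjusted p = 2.5e-04 in edgeR). Its exons share 165 bases with Tmppe on the same strand, so some reads of either gene may be counted for the other. Tmppe had 4705 counts over all 6 libraries and Glb1 6105.

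The largest decrease among them was that of Ids, which encodes the iduronate sulfatase that opens the breakdown of heparan and dermatan sulfate (chromosome X, 70343069 to 70365084). It went from 10.1, 9.61 and 9.02 CPM to 5.85, 5.97 and 5.08 CPM, a log2 fold change of -0.77 (standard error 0.08, adjusted p = 2.5e-06 in edgeR). The alpha chain gene of beta-hexosaminidase, Hexa, and the mannosidase genes Manba and Man2b1 were lower too, by log2 fold changes of -0.57, -0.61 and -0.39. So were Naglu, for a heparan sulfate glucosaminidase (-0.42), and Gaa, for the acid glucosidase that degrades glycogen (-0.38). Their senescent means were all within 2-fold of the quiescent means.

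Gla, the gene of alpha-galactosidase A, which removes the end sugar of globotriaosylceramide (chromosome X, 134588149 to 134601125), was the most raised of the glycosidases. Its level was 16.6, 15.7 and 17.9 CPM in quiescent and 29.9, 30.1 and 34.6 CPM in senescent libraries. Senescent replicate 3 was the highest, and the log2 fold change was 0.91 (standard error 0.07, adjusted p = 3.1e-07 in edgeR). The sialidase gene Neu1 rose by 0.55 and the beta-glucuronidase gene Gusb by 0.40 on the log2 scale. Gusb did not pass under library totals (log2 fold change 0.11, adjusted p = 0.245 in edgeR). Fuca1 averaged 13.5 ± 0.288 CPM in quiescent and 13.6 ± 1.25 CPM in senescent libraries (SD, n = 3 per group), with overlapping groups and a log2 fold change of 0.00071 (standard error 0.07).

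**Figure D2:**
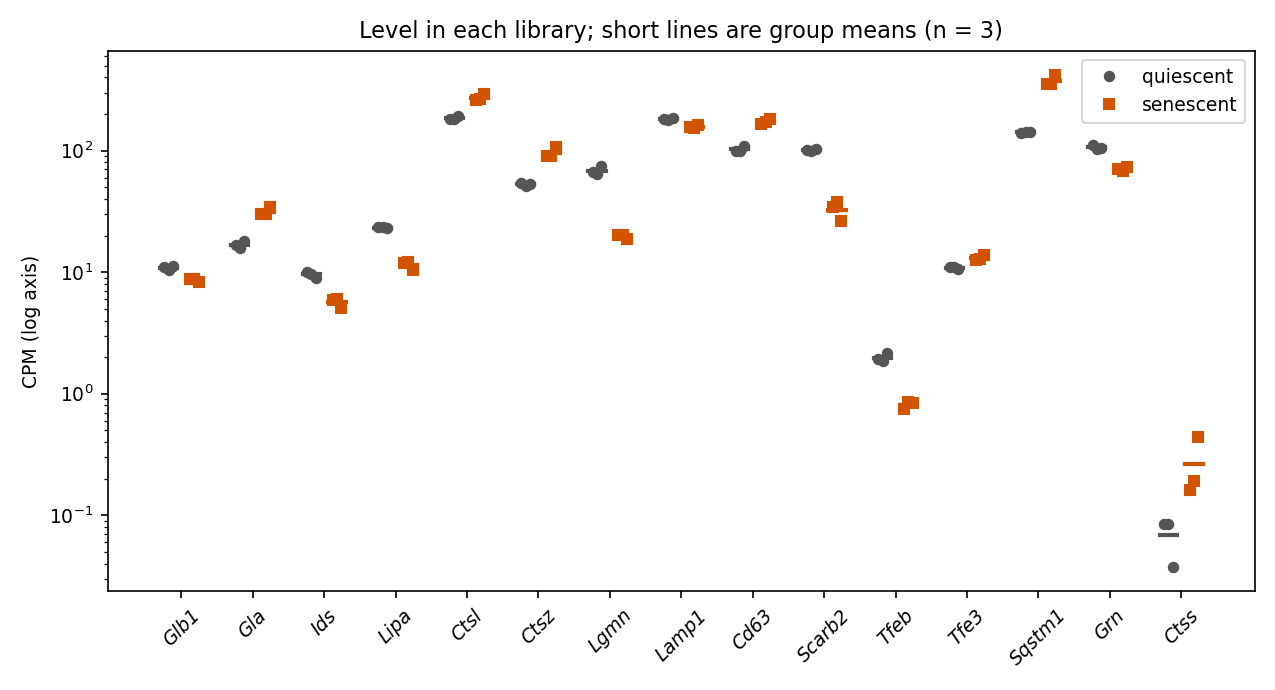
Level of 15 lysosomal genes in each library, in CPM on a log axis; circles are quiescent and squares senescent libraries, and short lines are group means. For each gene shown the 3 senescent libraries lie wholly above or wholly below the 3 quiescent ones. None of the lysosomal genes with overlapping groups was drawn, and 78.3% of all tested genes were separated in this way. Scarb2 and Ctss have the widest spread among senescent libraries.

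Of the 6 lipid enzymes and activators, 2 fell and 4 did not pass, where 37.8% of all genes fell and 36.7% rose. Lipa, the gene of lysosomal acid lipase, which frees cholesterol and fatty acids from esters taken up with lipoproteins (chromosome 19, 34492318 to 34527474), fell from 23.4, 23.4 and 23.0 CPM to 11.9, 12.2 and 10.5 CPM. The senescent libraries all lay near 50% of the quiescent level, with a log2 fold change of -1.01 (standard error 0.06, adjusted p = 3.2e-08 in edgeR). The acid ceramidase gene Asah1 fell by 0.39 on the log2 scale. Psap, for the precursor of the saposins, which present lipids to their enzymes, averaged 253 ± 10.5 CPM in quiescent and 263 ± 3.23 CPM in senescent libraries (SD, n = 3 per group). The sphingomyelinase gene Smpd1 had a log2 fold change of 0.0058 (standard error 0.05) and Gm2a, for the activator of ganglioside breakdown, of -0.04 (standard error 0.08). Ppt1, for a thioesterase that strips palmitate from proteins, had the highest log2 fold change of the 6, with levels of 18.2, 18.7 and 18.0 against 19.1, 19.3 and 20.5 CPM. Its groups did not overlap, yet the difference did not pass (log2 fold change 0.10, adjusted p = 0.087 in edgeR). Ppt1 shares 129 exon bases with Cap1 on the other strand, a gene with 69147 counts over all 6 libraries against 11810 for Ppt1. Under library totals all 6 lipid genes were called lower.

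Several cathepsins were higher in senescent libraries. Of the 11 peptidases, 7 rose and 3 fell, where 36.7% and 37.8% of all genes did. The 7 include Ctss, which passed the filter on low counts only through the senescent libraries, and with a CPM of at least 1 required in 3 libraries 6 of 10 rose. Ctsa, for the carboxypeptidase that protects Neu1 and Glb1, did not pass the test (log2 fold change 0.14, adjusted p = 0.086 in edgeR). Ctsl, which encodes the cysteine protease cathepsin L (chromosome 13, 64359337 to 64370890), rose from 182, 182 and 194 CPM to 262, 264 and 293 CPM, or by 0.55 on the log2 scale. Ctsb, for cathepsin B, rose by 0.49, and Ctsk, for cathepsin K, a strong collagenase known from osteoclasts, by 0.51. Ctsz, for the carboxypeptidase cathepsin Z (chromosome 2, 174427493 to 174439039), rose from 54.4, 51.3 and 53.1 CPM to 90.1, 89.8 and 108 CPM, with a log2 fold change of 0.86 (standard error 0.07). Senescent replicate 3 held the most of Ctsl and of Ctsz, and for both genes all senescent libraries lay above all quiescent ones.

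Ctsh, for cathepsin H, went from 5.46, 5.14 and 6.20 CPM to 11.3, 12.5 and 11.1 CPM, more than 2-fold. Its log2 fold change was 1.06 (standard error 0.08, adjusted p = 2.1e-07 in edgeR). Ctsd, the gene of the aspartic protease cathepsin D (chromosome 7, 142375911 to 142388038), changed less. It measured 212, 204 and 218 CPM in quiescent and 244, 248 and 258 CPM in senescent libraries. The groups were separate, with a log2 fold change of 0.24 (standard error 0.05, adjusted p = 0.0011 in edgeR), but under library totals the estimate was -0.056 (adjusted p = 0.559 in edgeR). Ctsb shares 774 exon bases with Fdft1, and Ctsa 495 with Pltp, each on the other strand. On the same strand Ctsd shares 808 with Gm49369 and Ctsl 395 with the pseudogene Gm49230. Neither of these has a row among the deposited counts. Whether reads were counted by strand was not given in the sources used here, so values of genes that share exon bases are uncertain.

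Ctss, for cathepsin S, had the highest log2 fold change of all 37 genes from very few reads. Its counts were 9, 10 and 4 in quiescent and 16, 17 and 45 in senescent libraries, so it passed the filter on low counts only through the senescent group. The log2 fold change was 1.92 (standard error 0.48, adjusted p = 0.0039 in edgeR), and 1.32 without senescent replicate 3. Cathepsin S is known from macrophages. The summed level of 20 macrophage markers on a fixed list was 4.78 to 5.02 CPM in quiescent libraries. In senescent libraries it was 11.5 to 15.4 CPM. Cd14 alone averaged 2.31 CPM of a mean sum of 4.94 CPM in quiescent libraries. It averaged 6.88 CPM of 13.3 CPM in senescent ones. The filter left 8 of the 20, of which 6 were higher and Ear2 lower (-3.35), where 36.7% and 37.8% of all genes were; Laptm5 and Mrc1, with 1 to 6 and 8 to 10 quiescent counts, passed it through the senescent libraries. Csf1r went from 26, 20 and 30 counts to 125, 147 and 124, and Lyz2 from 93, 94 and 71 to 212, 196 and 333. Among markers that did not pass, Adgre1 had 0, 0 and 3 counts against 12, 8 and 9, and Ptprc 1, 0 and 2 against 9, 2 and 7. C1qa had 0, 3 and 1 against 1, 3 and 8, Cx3cr1 9, 6 and 5 against 3, 2 and 3, and Chil3 0 in all libraries. The part of these cells in the Ctss result was not tested. For Ctsk, the summed level of 6 osteoclast markers was 0.894 to 0.997 CPM in quiescent and 0.501 to 0.622 CPM in senescent libraries. Acp5, the one that passed the filter, was lower (log2 fold change -0.89), Atp6v0d2 had 0, 2 and 1 counts against 6, 4 and 6, Oscar 12, 8 and 11 against 3, 2 and 10, and Dcstamp 0 in all.

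Legumain, the asparaginyl endopeptidase that also cuts cathepsin chains, went the other way. Lgmn (chromosome 12, 102394084 to 102439813) fell from 66.7, 63.7 and 74.4 CPM to 20.2, 20.2 and 18.8 CPM, the largest decrease of the 37 genes. No senescent library came near a quiescent one, and the quiescent level was 3.46 times the senescent one by the fitted log2 fold change of -1.79 (standard error 0.06, adjusted p = 6.3e-10 in edgeR). Tpp1, for a tripeptidyl peptidase, fell by 0.54 and Ctsc, for the dipeptidyl peptidase that activates granule proteases, by 0.47 on the log2 scale.

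Membrane proteins were lower for 4 of 5, where 37.8% of all genes were lower and 36.7% higher. Scarb2, which encodes an abundant integral membrane protein of lysosomes (chromosome 5, 92441314 to 92506833), fell from 101, 98.4 and 104 CPM to 34.2, 37.5 and 26.3 CPM. Senescent replicate 3 was the lowest, 0.44 below the mean of the others on the log2 scale. The log2 fold change was -1.63 (standard error 0.12, adjusted p = 3.3e-06 in edgeR), and it was -1.49 without that library. Mcoln1, for the calcium channel mucolipin 1, fell by 0.63. The abundant glycoproteins that line the lysosomal membrane changed little: Lamp1 (chromosome 8, 13159161 to 13175338) measured 182, 180 and 186 CPM against 157, 154 and 161 CPM, a log2 fold change of -0.21 (adjusted p = 0.0016 in edgeR). Lamp2 (chromosome X, 38401357 to 38456454) measured 87.4, 86.3 and 87.7 against 79.6, 79.3 and 76.2 CPM, a log2 fold change of -0.15 (adjusted p = 0.0086 in edgeR). Both were separated between groups at a small size.

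Cd63, the gene of a tetraspanin of late endosomes and secreted vesicles (chromosome 10, 128900989 to 128912822), was the membrane protein gene that rose. It went from 99.7, 100.2 and 109 CPM to 164, 170 and 181 CPM, with a log2 fold change of 0.74 (standard error 0.06, adjusted p = 3.6e-07 in edgeR). The senescent libraries all lay above the quiescent ones. A pseudogene, Cd63-ps, is annotated on another chromosome, and how reads that fit both were counted is not stated.

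The genes of the transcription factors themselves moved in opposite directions. Tfeb (chromosome 17, 47737030 to 47792419) was low and fell further, from 1.93, 1.85 and 2.15 CPM to 0.751, 0.849 and 0.836 CPM, which is 205 to 228 counts against 75 to 86. The groups were far apart, with a log2 fold change of -1.28 (standard error 0.11, adjusted p = 1.1e-06 in edgeR). Tfe3 (chromosome X, 7762560 to 7775202) measured 11.0, 11.1 and 10.6 CPM against 12.6, 13.0 and 13.8 CPM, a log2 fold change of 0.27 (standard error 0.06, adjusted p = 9.5e-04 in edgeR). Under library totals Tfe3 had an estimate of -0.031 (adjusted p = 0.761 in edgeR), while Tfeb was still called lower. Per kilobase of exon, the quiescent level was 0.349 ± 0.0278 CPM for Tfeb and 1.18 ± 0.0326 CPM for Tfe3, and the senescent level 0.143 ± 0.00936 and 1.42 ± 0.0666 CPM (SD, n = 3 per group).

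Sqstm1 encodes the receptor that ties ubiquitinated cargo to autophagosomes and is itself degraded in lysosomes (chromosome 11, 50199366 to 50210827). Its level was 139, 143 and 143 CPM in quiescent and 351, 356 and 416 CPM in senescent libraries, the highest in senescent replicate 3. The senescent level was 2.65 times the quiescent one by the fitted log2 fold change of 1.40 (standard error 0.07, adjusted p = 7.2e-09 in edgeR). Sqstm1 shares 580 exon bases with Mrnip on the other strand, a gene with 424 counts over all 6 libraries against 156527 for Sqstm1. Grn, for progranulin, a secreted protein that is cut into granulins in lysosomes (chromosome 11, 102430315 to 102437048), fell from 112, 102 and 105 CPM to 70.8, 68.6 and 73.2 CPM. All its senescent libraries were lower, with a log2 fold change of -0.59 (standard error 0.05, adjusted p = 9.1e-07 in edgeR).

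Levels of different genes were compared per kilobase of GENCODE exon. That length joins the exons of all annotated transcripts of a gene, 6489 bases for Ctsl and 3356 for Sqstm1. It can exceed the length of the transcript made in these cells, so the order of genes depends on it. In quiescent libraries Psap (92.3 ± 3.82 CPM per kilobase) and Ctsd (89.9 ± 2.90) came first and lay within each other's spread, followed by Lamp1 (68.3 ± 1.19), Sqstm1 (42.2 ± 0.743) and Ctsz (36.7 ± 1.08; SD, n = 3 per group). In senescent libraries Sqstm1 came first at 112 ± 10.9, within its spread of Ctsd at 106 ± 3.06, before Psap at 95.7 ± 1.18 and Ctsz at 66.5 ± 7.05. Ctss and Tfeb were the lowest in both groups.

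The make-up of the summed level per kilobase depends on the exon lengths used, but not on the scaling between libraries. Sqstm1 and Grn together made 10.9% to 11.4% of it in quiescent and 16.8% to 18.3% in senescent libraries, and Sqstm1 alone went from 6.47% ± 0.240 to 14.6% ± 0.903 (SD, n = 3 per group). The 11 peptidases went from 40.7% to 41.7% up to 43.2% to 44.2%. Glycan-cutting enzymes made 9.48% to 9.57% in quiescent and 6.65% to 7.40% in senescent libraries, and membrane proteins 18.7% to 19.1% and 15.6% to 15.9%. Lipid enzymes and activators went from 18.8% to 19.2% down to 15.1% to 16.5%. For each of these 5 groups the ranges of the quiescent and senescent libraries did not overlap. The shares sum to a fixed total, so a rise of one lowers the others. The summed level per kilobase of the lipid group itself was 120 to 126 CPM in quiescent and 119 to 123 CPM in senescent libraries, and that of the membrane proteins 121 to 127 and 118 to 123 CPM, both overlapping. The glycan-cutting enzymes summed to 60.1 to 63.5 CPM in quiescent and 52.6 to 55.4 CPM in senescent libraries, without overlap. The peptidases summed to 258 to 279 CPM per kilobase in quiescent and 321 to 350 in senescent libraries. All 37 genes together summed to 633 to 670 and 743 to 792 CPM per kilobase, also without overlap. Unlike the shares, these sums depend on the scaling between libraries. As a share of all counts outside the ribosomal rows, without that scaling, the 37 genes made 1.20% to 1.29% in quiescent libraries. In senescent libraries they made 1.20% to 1.26%, which overlaps.

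**Figure D3:**
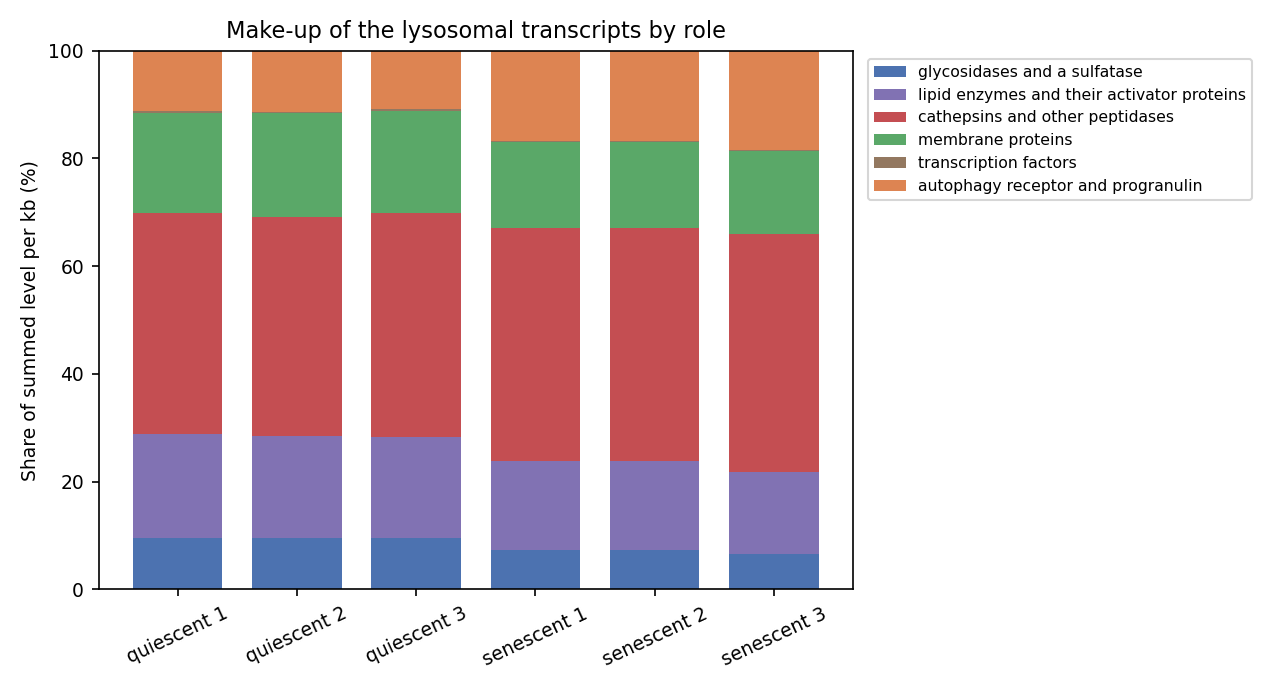
Share of each role group (stacked colours, percent) in the summed CPM per kilobase of the 37 lysosomal genes, one bar per library. The share of Sqstm1 with Grn widens from 10.9% to 11.4% in quiescent to 16.8% to 18.3% in senescent libraries, and that of glycosidases narrows.

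The other genes of the lysosomal pathway were read from 7 lists with 128 genes, chosen with earlier results of these data known. Of these genes 127 were tested, and 66 were higher and 36 lower, where 36.7% and 37.8% of all genes were. Under library totals the pathway counts were 37 and 59, where the number called higher over all genes also fell, from 5158 to 2952. The V-ATPase, the proton pump of the lysosome, rose almost throughout: 14 of 16 subunit and accessory genes were higher and none lower, beside 36.7% higher over all genes. The median log2 fold change was 0.67. Atp6v1h, for the H subunit, rose from 13.9 to 35.3 CPM on average (log2 fold change 1.35, standard error 0.05) and Atp6v1b2, for a subunit of the catalytic head, from 29.2 to 67.5 CPM (1.21, standard error 0.10). The genes that did not pass were Atp6ap1 (0.03) and the low-level Atp6v0c (0.15), named here after their values were seen. Under library totals 12 were higher and 1 was lower.

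Other proteins of the lysosomal lumen and membrane went both ways, where 36.7% of all genes were higher and 37.8% lower. Of 25 further luminal proteins and hydrolases, 7 were higher and 12 lower. Sgsh, for the heparan sulfamidase, fell by 1.59 and Ctso, for cathepsin O, by 1.45 on the log2 scale, while Hgsnat, for the membrane acetyltransferase of heparan breakdown, rose by 1.50 and Creg1, for a secreted lysosomal glycoprotein, by 0.90. Of 17 further membrane proteins, 5 were higher and 9 lower, with the potassium and proton channel gene Tmem175 at -1.58, the amino acid sensor gene Slc38a9 at -0.88, Lmbrd1, for cobalamin export, at 0.69 and Laptm4b at 0.63. In the membrane list 3 were higher without senescent replicate 1 or without senescent replicate 2, and under library totals the counts were 5 and 18 for the luminal list and 2 and 12 for the membrane list. Upper quartile scaling gave 3 higher and 10 lower for the latter.

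Of 17 genes that tag hydrolases with mannose phosphate and sort them, 10 were higher and 3 lower, beside 36.7% and 37.8% of all genes. The mannose phosphate receptor genes M6pr (0.76) and Igf2r (0.63) rose on the log2 scale, whereas Gnptab, for the enzyme that starts the tag, fell by 0.39. Sort1, for sortilin, a receptor that takes up progranulin, fell from 13.2 to 4.41 CPM on average (log2 fold change -1.58, standard error 0.09). The counts were 8 and 6 under upper quartile scaling, 2 and 7 under library totals, and 10 and 6 without senescent replicate 3.

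Of 22 genes that control TFEB at the lysosome, 13 were higher and 5 lower. The shares to set beside this list, the autophagy genes and the cathepsin inhibitors were 36.7% higher and 37.8% lower over all genes. Rragd, for a Rag GTPase that takes part in bringing TFEB to mTORC1, rose from 3.16 to 9.04 CPM on average (log2 fold change 1.52, standard error 0.07). Rheb, for the GTPase that activates mTORC1, rose by 0.87, and the Ragulator scaffold genes Lamtor4 (-0.57) and Lamtor2 (-0.26) fell. Of the same scaffold, Lamtor3 rose by 0.70, and Lamtor1 (-0.11) and Lamtor5 (0.13) did not pass. Under library totals 6 were higher and 8 lower. Of 25 autophagy genes, 13 were higher and 6 lower, with Gabarapl2 (1.09) and Atg12 (0.96), both for ubiquitin-like proteins of the autophagosome, the most raised and the receptor gene Calcoco1 (-0.93) and the kinase gene Ulk2 (-0.78) the most lowered. Under library totals 7 were higher and 12 lower. Of 5 tested cathepsin inhibitors, 4 were higher and 1 lower, with Cstb, for cystatin B, at 0.71, Serpinb6a at 0.57 and Serpinb6b at -1.07; Stfa1 had 0 counts throughout.

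**Figure D4:**
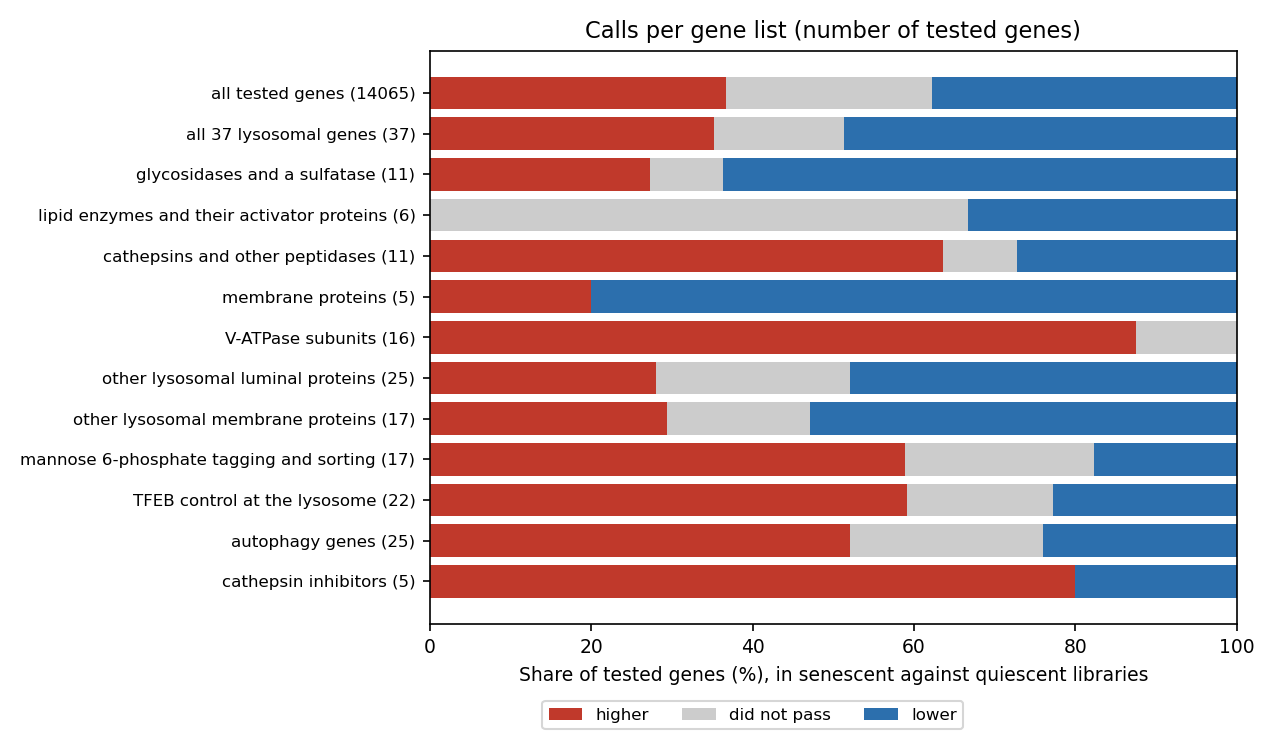
Share of tested genes (x axis, percent) called higher, called lower or not passing in senescent against quiescent libraries, for all genes, for the lysosomal genes and their larger role groups, and for the 7 pathway lists, with the number of tested genes in brackets. The V-ATPase bar holds 87.5% higher and none lower, whereas over all genes 36.7% were higher and 37.8% lower.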

How the data were processed

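Ribosomal RNA-depleted total RNA was sequenced as paired reads of 100 bases from a directional kit, per the labels' protocols. Raw counts for each gene symbol were deposited by the authors. The submitters' processing notes list mm10, edgeR 3.32.1 and limma 3.46.0, with no role. Aligner, counter and strand use were not given in the sources used here. A deposited table of repeats was not used. The whole table was fitted in edgeR 4.0.16 (R 4.3.3) with 3 libraries per group: filterByExpr (minimum count 10), TMM, a robust quasi-likelihood F test and Benjamini-Hochberg adjustment at 0.05. CPM use TMM-adjusted totals with ribosomal rows included. Standard errors were taken as the absolute log2 fold change over the root of its F. Depth covers counting error only, since reads carry no molecular identifiers. The test was tried on simulated counts. Positions and exon lengths come from GENCODE M21 (GRCm38, the assembly mm10 names). Members and lists were chosen with earlier results of these data known.

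By rule, values in every library were given for the highest and lowest gene of each role and for Glb1, Tfeb, Tfe3, Sqstm1, Grn, Lamp1, Lamp2 and Ctsd, and up to 2 risen and 2 fallen genes were named per pathway list at a mean log2 CPM of at least 0. Library values of Ctsl, Ctsz and Ctsh beyond that rule, and the genes singled out by overlap, scaffold, marker list or counts of 0, were chosen after seeing the values. The alternatives comprised DESeq2 1.42.0, limma-voom (limma 3.58.1), other scalings and filters, the replicate number as a block, and fits lacking 1 library each.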

Additional observations from a re-analysis of the deposited data

How the results depend on the processing

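Of 31 lysosomal genes called, 28 kept direction and call in all 15 alternatives in which they were tested; the exceptions were Ctsd, Gusb and Tfe3, each under library totals. Counts of lysosomal genes called were 13 higher and 18 lower with DESeq2, limma-voom, RLE, upper quartile, no filter and ribosomal rows left out, and 13 to 14 and 18 without single libraries. Library totals gave 2952 higher over all genes, and 37 higher and 59 lower over the pathway genes. Ribosomal rows made 79.8% to 81.5% of those totals in quiescent and 80.5% to 82.8% in senescent libraries. Their part in these counts was not tested.

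Estimates that changed sign were near 0 or shifted with the scaling. Under library totals they were -0.30 for Fuca1, -0.29 for Smpd1, -0.20 for Ppt1, -0.25 for Psap, -0.16 for Ctsa, -0.056 for Ctsd and -0.031 for Tfe3. Under upper quartile they were -0.094 for Fuca1, -0.089 for Smpd1 and -0.042 for Psap, and with a CPM of at least 1 in 3 libraries -0.027 for Fuca1 and -0.021 for Smpd1; that filter did not test Ctss. Fuca1 was also -0.0020 without ribosomal rows and -0.0043 in limma-voom. Leaving out single libraries gave -0.059 to 0.075 for Fuca1, -0.0093 to 0.031 for Smpd1 and -0.12 to 0.020 for Gm2a. Ctsa passed as higher without senescent replicate 2 (0.18, adjusted p = 0.040 in edgeR; 0.040 to 0.575 over its alternatives).

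With the replicate number as a block, 5124 genes were higher and 5281 lower, the lysosomal counts were 13 and 18, and Fuca1 was -0.0017; no call of a lysosomal gene changed. Deviations of same-numbered libraries correlated at 0.05, -0.01 and 0.06, so the numbers do not show pairing, and not every library correlated best with its own number. Depth limits Ctss, at 4 to 45 counts. For small differences such as those of Ppt1 and Ctsa, a p that misses the threshold does not show equal levels.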

Other observations

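Genes of 1 enzyme complex and of 1 breakdown chain had changes in both directions. These sets were put together after the values were seen and carry no test of their own. In the complex of Ctsa, Neu1 and Glb1 the log2 fold changes were 0.14, 0.55 and -0.34, and Ctsa did not pass. Along the breakdown of heparan sulfate, Ids (-0.77), Idua (-0.60), Sgsh (-1.59) and Naglu (-0.42) fell, and Hgsnat (1.50) and Gusb (0.40) rose. The sulfatase genes Arsa (-1.05) and Arsb (-0.82) fell, as did Sumf1 (-0.55), for the enzyme that activates sulfatases. Under library totals Gusb did not pass.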
